A study of Canis lupus familiaris with 2 samples.

Results

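The outer segment disc and axoneme genes were 8 genes taken by name, *PRPH2*, *ROM1*, *PROM1*, *CDHR1*, *RP1*, *RP1L1*, *TULP1* and *FSCN2*. All 8 were listed in both dogs, among 34981 genes in N350 and 19947 in N354. N350 and N354 were male dogs of 40 weeks, with a genotype given as normal or wild type and no treatment named, and their neuroretina was studied cell by cell. Punches of retina, 5 mm across, were dissociated with trypsin and a neural tissue kit, and 1 droplet library of the 3′ ends of polyadenylated RNA was made from each dog. Molecules were counted by unique molecular identifiers (UMIs), short tags that let the amplified copies of 1 RNA count as 1.

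Photoreceptors detect light in the outer segment, a stack of membrane discs built at the end of a modified cilium whose microtubule core is the axoneme. The tetraspanins PRPH2 and ROM1 form the disc rim, PROM1 and CDHR1 act at the base of the outer segment where new discs form, and FSCN2 bundles actin. RP1 and RP1L1 are doublecortin proteins of the axoneme, and TULP1 takes part in moving proteins such as opsin towards the outer segment. Rods and cones both build this structure, while bipolar cells and Müller glia, the retinal interneurons and support cells compared here, have none.

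Cell classes were set from raw UMIs of other marker genes, never from the 8 genes. N350 had 8900 cells with 24030707 UMIs and N354 had 4392 cells with 9711202 UMIs. The gates gave 4986 and 2930 rods, 472 and 220 cones, 1249 and 598 Müller glia, and 361 and 268 bipolar cells in N350 and N354. Median depth per cell was lowest in rods, at 1054.5 and 1010.5 UMIs, against 2481 and 2337.5 in cones, 5274 and 5583 in Müller glia, and 2124 and 2560 in bipolar cells. Markers of the retinal pigment epithelium summed to 0.00915 and 0.0144 UMIs per 10000 over all cells. The dogs shared 6 cell barcodes. Their counts were made on different gene annotations, so that a difference between dogs and one between annotations cannot be told apart. A level below is the number of UMIs of a gene per 10000 UMIs of all genes in a class, brackets hold its exact Poisson 95% interval, which covers counting error only, and means are given with the SD over the 2 dogs. Because 3′ counts depend on how each gene's end is annotated, levels are compared between cells and not between genes.

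All 8 genes together took 140 (140 to 141) UMIs per 10000 in rods of N350 and 195 (193 to 196) in those of N354. Cones were at 52.4 and 69.5, bipolar cells at 19.4 and 17.0, and Müller glia at 8.21 and 14.6. Rods thus lay highest and cones next in each dog, and the 4 classes did not overlap between dogs. Rods held 75.2% of all UMIs of these genes in N350 and 82.9% in N354, and cones held 8.45% and 6.23%. Of the UMIs of all genes, rods held 25.2% and 35.3%, and cones 7.60% and 7.45%.

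The disc rim genes were abundant in rods of both dogs. *PRPH2* had a level of 36.5 (36.0 to 36.9) in rods of N350 and 51.4 (50.7 to 52.2) in those of N354, a mean of 44.0 ± 10.6 (SD, n = 2). It fell to 14.3 and 18.7 in cones, 4.30 and 3.76 in bipolar cells, and 2.02 and 4.19 in Müller glia. Bipolar cells and Müller glia overlapped between dogs, and the other classes stood apart. *ROM1*, the partner of PRPH2 in the rim, was at 62.7 (62.1 to 63.3) and 60.5 (59.6 to 61.3) in rods, a mean of 61.6 ± 1.59 (SD, n = 2). Its level was 16.7 and 13.9 in cones, 9.84 and 5.90 in bipolar cells, and 4.03 and 4.87 in Müller glia. For *ROM1* the 4 classes did not overlap, and the dogs differed in rods by 1.04-fold.

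Of the genes of disc formation, *PROM1* and *CDHR1* differed most in where they were found. *PROM1* was at 1.54 (1.45 to 1.65) and 6.69 (6.42 to 6.97) in rods and at 0.931 and 3.65 in cones. It was close to the bottom of its range in bipolar cells, at 0.0773 and 0.357, and in Müller glia, at 0.105 and 0.619. Every class of N354 was above the same class of N350, in rods by 4.33-fold, so that the classes overlapped between dogs and kept the same order of rods over cones over the rest within each. *CDHR1*, a photoreceptor cadherin, was at 0.894 (0.821 to 0.973) and 1.54 (1.41 to 1.68) in rods, 0.892 and 1.95 in cones, and 0.762 (0.592 to 0.964) and 1.58 (1.29 to 1.91) in bipolar cells. Only Müller glia, at 0.114 and 0.173, lay apart from these. *FSCN2* had 134 UMIs in rods of N350, a level of 0.221 (0.185 to 0.262), and 1 UMI in rods of N354. Its other classes held 15, 15 and 3 UMIs in N350 for cones, Müller glia and bipolar cells, and 2, 1 and 0 in N354, where a count of 0 allows up to 3. *FSCN2* could therefore be described in 1 dog only.

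Among the axoneme genes *RP1* and *RP1L1* and the transport gene *TULP1*, *RP1* was at 22.7 (22.3 to 23.1) in rods of N350 and 56.7 (55.9 to 57.5) in those of N354, a mean of 39.7 ± 24.0 (SD, n = 2). In cones it was at 7.30 and 15.5, in bipolar cells at 1.99 and 3.78, and in Müller glia at 1.11 and 3.55. N354 was above N350 in every class, by 2.50-fold in rods, and rods of either dog were above cones of either dog. *RP1L1* was at 1.29 (1.20 to 1.38) and 1.35 (1.23 to 1.48) in rods and at 1.10 (0.954 to 1.26) and 1.09 (0.865 to 1.36) in cones. In bipolar cells it was at 0.0773 and 0.134, and in Müller glia at 0.0572 and 0.106. For *RP1L1* the photoreceptors of both kinds thus stood far above the other classes in both dogs, and the intervals of rods and cones overlapped. *TULP1* showed the same kind of order, with 14.7 (14.4 to 15.0) and 16.8 (16.4 to 17.2) in rods, 11.1 (10.6 to 11.6) and 14.6 (13.7 to 15.5) in cones, 2.27 and 1.44 in bipolar cells, and 0.750 and 1.05 in Müller glia. Its cones of N354 nearly reached the rods of N350.

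**Figure D1:**
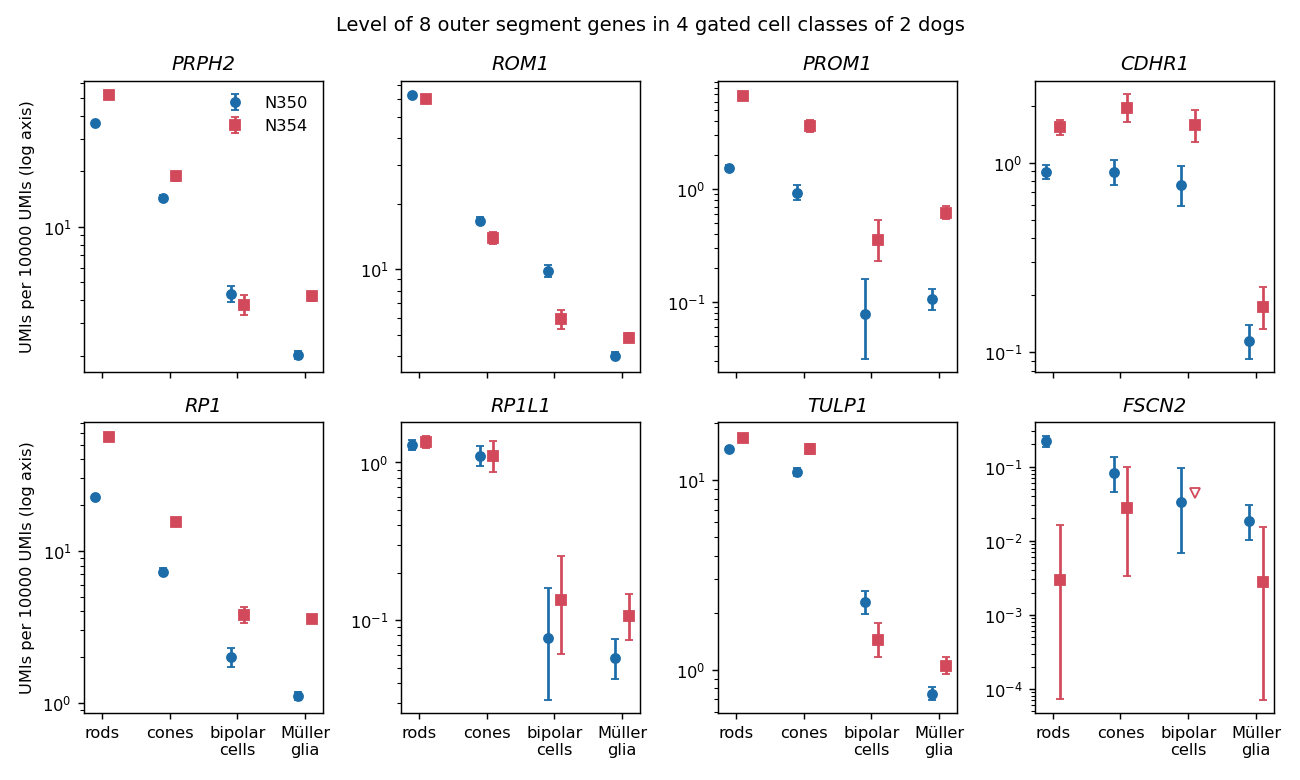
Level of each of the 8 genes, in UMIs per 10000 UMIs on a log axis, in rods, cones, bipolar cells and Müller glia of N350 (circles) and N354 (squares), with exact Poisson 95% intervals. Most genes step down from rods to cones to the other classes, *CDHR1* stays as high in bipolar cells, and the open triangle marks the upper limit for *FSCN2* at 0 UMIs.

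UMIs were summed per dog and class and compared over 11625 genes with edgeR's quasi-likelihood test, with the dog as a term and with dogs, not cells, as replicates. In rods over Müller glia, 8 of the 8 genes were higher at an adjusted p under 0.05, where 23.9% of all genes tested were called higher, and 0 were lower, where 32.0% were. Their median log2 fold change was 3.21, beside -0.10 over all genes. *RP1* was higher by 3.55 ± 0.22 (SE) and *TULP1* by 3.52 ± 0.26, and *CDHR1* had the smallest difference, 2.43 ± 0.21 (Benjamini-Hochberg adjusted p = 1.17e-06 by edgeR's quasi-likelihood test). *FSCN2* was called at 2.66 ± 0.71 (adjusted p = 0.00695 by the same edgeR test), but that call rested on N350, since N354 had 1 UMI in each class, which gave -0.32 alone, and DESeq2 gave an adjusted p of 0.208. In cones over Müller glia, 7 of 8 were higher, all but *FSCN2*, where 17.4% of all genes were called higher, 0 were lower, where 24.5% were, and the median was 2.16 beside -0.14 over all genes. Without the dog as a term, 4 genes were called in rods (*PRPH2*, *ROM1*, *RP1L1* and *TULP1*) and 2 in cones (*RP1L1* and *TULP1*). Of all 11625 genes that fit called 1216 in rods and 528 in cones, counting both directions.

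Against bipolar cells, 6 of the 8 genes were higher in rods, where 14.5% of all genes were called higher and 15.3% lower, with a median log2 fold change of 3.27 beside 0.08. The same 6 were higher in cones, where 11.2% of all genes were called higher and 9.45% lower, with a median of 2.14 beside 0.01. *PROM1* showed the widest gap, 4.29 ± 0.25 in rods and 3.61 ± 0.25 in cones. *CDHR1* was not called in either, at 0.13 ± 0.21 in rods over bipolar cells (adjusted p = 0.694 by edgeR's quasi-likelihood test) and 0.42 ± 0.21 in cones over bipolar cells (adjusted p = 0.201 by edgeR). *FSCN2* missed the threshold against rods at 2.68 ± 0.98 (adjusted p = 0.0579 by edgeR), and its adjusted p ranged from 0.0400 to 0.649 over the alternatives. Without the dog as a term 4 genes were called in rods over bipolar cells and 2 in cones over bipolar cells. Of all 11625 genes that fit called 453 and 174, counting both directions.

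Rods and cones differed in part of the set only. In cones over rods, 4 of the 8 genes were lower, where 8.98% of all genes were called lower, and 0 were higher, where 11.0% were. The median log2 fold change of the 8 genes was -0.78, beside -0.04 over all genes. *ROM1* differed most, at -1.89 ± 0.23 (adjusted p = 9.57e-05 by edgeR's quasi-likelihood test), a fold of 3.70 in rods over cones after edgeR's normalization. *RP1* was at -1.63 ± 0.20 (adjusted p = 0.000112 by edgeR) and *PRPH2* at -1.28 ± 0.24 (adjusted p = 0.00278 by edgeR). *PROM1* was lower by the smallest margin, -0.68 ± 0.18 (adjusted p = 0.0185 by edgeR), and among cells with at most 10% mitochondrial UMIs its adjusted p was 0.0545. The other 4 did not pass, *TULP1* at -0.17 ± 0.23, *RP1L1* at -0.14 ± 0.22, *CDHR1* at 0.29 ± 0.20 and *FSCN2* at -0.89 ± 0.72, and such values do not show equal levels. Without the dog as a term 0 of the 8 passed, and 67 of all genes did in place of 2321, though the log2 fold changes stayed between -2.01 and -1.80 for *ROM1*, -1.74 and -1.50 for *RP1* and -1.39 and -1.21 for *PRPH2* over all alternatives run.

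Per dog, the ratio of the level in cones to that in rods had intervals that did not overlap between the animals for *ROM1*, *RP1* and *TULP1*. It came to 0.267 (0.257 to 0.277) for *ROM1* in N350 and to 0.231 (0.216 to 0.246) in N354, and for *RP1* it was 0.322 and 0.274. *PRPH2* gave 0.393 and 0.364, and *PROM1* gave 0.603 and 0.546. These 4 were below 1 in both dogs with intervals that stopped short of 1. The ratio for *TULP1* was 0.753 (0.717 to 0.790) and 0.870 (0.814 to 0.929), also below 1 by counting error, while that for *RP1L1* was 0.856 and 0.808 with intervals that reached 1. *CDHR1* gave 0.998 (0.832 to 1.19) in N350 and 1.27 (1.04 to 1.53) in N354, so that only N354 had more in cones.

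**Figure D2:**
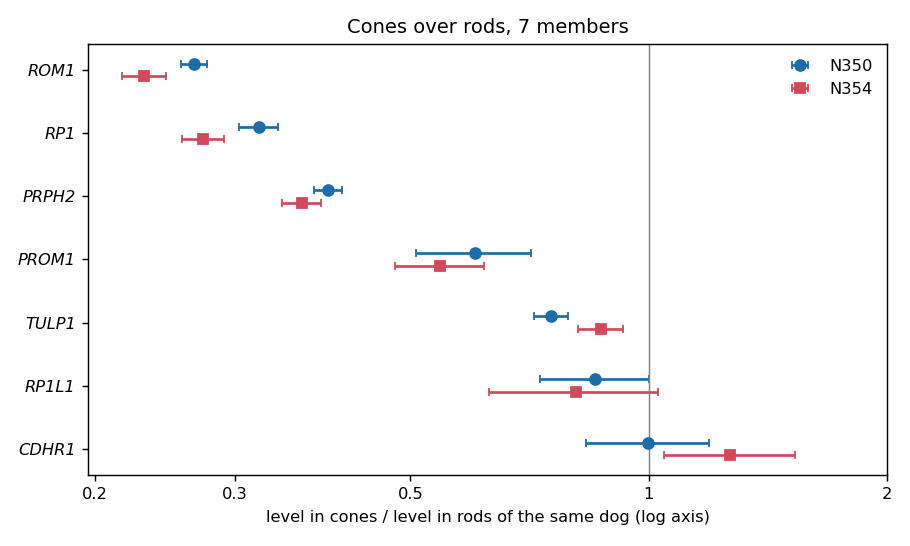
Ratio of the level in cones to the level in rods of the same dog on a log axis, with exact conditional 95% intervals, for 7 genes in N350 (circles) and N354 (squares), where the line marks equal levels. *ROM1*, *RP1* and *PRPH2* lie far below the line, *TULP1* and *RP1L1* close to it and *CDHR1* at or above it.

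These levels are shares of a cell's UMIs, and cones held more UMIs per cell than rods. Counted per cell, *ROM1* alone was lower in cones of both dogs, with 6.47 UMIs a cone against 7.62 a rod in N350 and 4.58 against 7.08 in N354. A cone held 5.54 UMIs of *PRPH2* against 4.43 in a rod of N350, and 6.16 against 6.03 in N354. *TULP1* was higher per cone by 2.40-fold and 2.44-fold, *RP1L1* by 2.73-fold and 2.27-fold, and *CDHR1* by 3.18-fold and 3.56-fold. *RP1* was at 2.82 UMIs a cone against 2.76 a rod in N350 and at 5.10 against 6.64 in N354. The order of rods over cones for *PRPH2* and *PROM1* therefore held for the level and not for the count per cell. More RNA per cone and fuller capture of cones cannot be told apart. Cones also held UMIs of rod genes. *SAG*, *GNAT1*, *GNGT1* and *PDE6G* together had 18.3 and 16.3 UMIs a cone against 36.8 and 64.3 a rod in N350 and N354. At the ratio of *PRPH2* to these 4 genes in rods, they would bring 1037 of its 2617 UMIs in cones of N350 and 337 of 1356 in N354. The part of rod RNA in the counts per cone was not tested.

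Ratios of 2 of the genes in the same cells do not depend on the total. There were 1.72 UMIs of *ROM1* per UMI of *PRPH2* in rods of N350 and 1.17 in cones, and 1.18 and 0.743 in N354. Cones thus had 0.678 (0.642 to 0.717) and 0.633 (0.581 to 0.689) of the rods' ratio of one rim partner to the other. For *RP1L1* to *RP1*, cones had 2.66 (2.24 to 3.14) and 2.95 (2.28 to 3.79) times the ratio of rods. *TULP1* to *PRPH2* was 1.91 (1.80 to 2.04) and 2.39 (2.19 to 2.60) times as high in cones. In both dogs these pairs leaned in cones from *ROM1* towards *PRPH2*, from *RP1* towards *RP1L1* and from *PRPH2* towards *TULP1*, by more than counting error. *CDHR1*, whose ratio of the level in cones to that in rods was 0.998 and 1.27, was in none of these pairs. The part of rod RNA in the ratios of cones was not tested.

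Cones were also divided by opsin, as those with at least 3 UMIs of *OPN1SW*, the short-wave opsin, and those with at least 3 of *OPN1LW*, the long-wave opsin, each above the other. N350 had 51 and 49 such cones and N354 had 14 and 64. *TULP1* was at 11.9 (10.6 to 13.4) and 10.9 (9.95 to 12.0) in the short-wave and long-wave cones of N350 and at 12.2 (9.68 to 15.2) and 15.8 (14.6 to 17.1) in those of N354. *PRPH2* was at 13.2 and 14.5 in N350 and at 15.9 and 20.2 in N354. *ROM1* was at 18.4 (16.8 to 20.2) and 11.6 (10.6 to 12.7) in N350, with intervals apart, and at 14.9 and 14.6 in N354. The difference for *ROM1* was thus seen in 1 dog. Short-wave cones held more UMIs of rod genes in both dogs, since the *ROM1* level at the rods' ratio to 4 rod genes would be 18.7 in short-wave and 3.07 in long-wave cones of N350, and 8.10 and 4.38 in those of N354. The part of rod RNA in the result was not tested.

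UMIs of rod genes were found in every class, so each of the 8 genes was set against 4 rod genes, *SAG*, *GNAT1*, *GNGT1* and *PDE6G*. The ratio in rods of the same dog serves as a reference, and a value of 1 means as many UMIs per UMI of the 4 genes as in rods. Rods were themselves chosen partly on these 4 genes. The make-up of the rod RNA in other classes, and whether it came as free RNA or in doublets, was not measured. The 4 genes took 303 and 549 UMIs per 10000 in rods, 47.2 and 49.7 in cones, 35.4 and 30.4 in bipolar cells, and 19.1 and 45.3 in Müller glia of N350 and N354. In Müller glia several genes lay below 1. *RP1* was at 0.778 (0.727 to 0.832) and 0.758 (0.716 to 0.803) and *TULP1* at 0.810 (0.746 to 0.879) and 0.759 (0.682 to 0.842) in N350 and N354. *PRPH2* at 0.879 (0.836 to 0.924) and *RP1L1* at 0.708 (0.516 to 0.951) were below 1 in N350 only. *CDHR1* alone had intervals above 1, at 2.03 (1.62 to 2.54) and 1.36 (1.03 to 1.77). The value in a class without outer segments was thus not the same for every gene, and small departures from 1 in other classes cannot be read as a difference from rod RNA. In amacrine cells of N350, 205 cells that lack outer segments, the ratios of *PRPH2*, *ROM1*, *RP1* and *TULP1* were 0.984, 0.945, 0.908 and 0.925, all with intervals that held 1. In 49 horizontal cells of N350, *ROM1* was at 1.40 (1.19 to 1.65) and *RP1* at 1.63 (1.25 to 2.08).

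In cones every one of the 7 well-counted genes stood above 1. The smallest ratio was 1.71 (1.65 to 1.78), for *ROM1* in N350, and 2.55 (2.39 to 2.71) in N354. *TULP1* reached 4.83 (4.60 to 5.07) and 9.61 (8.99 to 10.3), *RP1L1* 5.50 (4.69 to 6.43) and 8.93 (6.94 to 11.4), and *CDHR1* 6.41 (5.35 to 7.65) and 14.0 (11.5 to 16.9). Of the level of *ROM1* in cones, 16.7 and 13.9, the rod ratio would give 9.76 and 5.47. For *CDHR1* it would give 0.139 of 0.892 and 0.139 of 1.95.

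Bipolar cells stood out for *CDHR1*. Its ratio there was 7.28 (5.59 to 9.37) in N350, from 69 UMIs, and 18.5 (14.9 to 22.9) in N354, from 106 UMIs, where the rod ratio would give a level of 0.104 of the measured 0.762 and 0.0851 of 1.58. With each of the 4 rod genes alone the ratio lay between 7.07 and 8.26 in N350 and between 15.8 and 19.2 in N354. Of the other genes, those with intervals above 1 in bipolar cells of both dogs were *ROM1*, at 1.34 (1.26 to 1.44) and 1.76 (1.59 to 1.95), and *TULP1*, at 1.32 (1.14 to 1.52) and 1.55 (1.26 to 1.90). *PRPH2* was at 1.01 and 1.32. With bipolar cells gated at 6 UMIs and without *PRKCA*, the mean ratio of *CDHR1* over dogs was 14.9 in place of 12.9, and without the 4% of cells with the highest doublet scores it was 23.2.

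**Figure D3:**
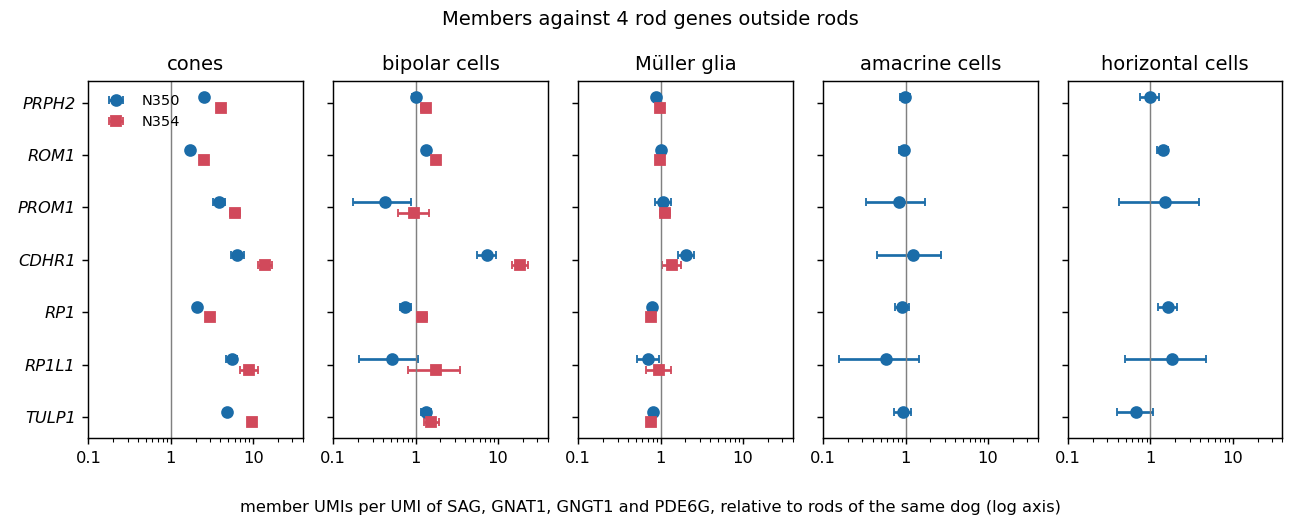
UMIs of 7 of the genes per UMI of *SAG*, *GNAT1*, *GNGT1* and *PDE6G*, relative to rods of the same dog, on a log axis with exact conditional 95% intervals, in cones, bipolar cells and Müller glia of both dogs and in amacrine and horizontal cells of N350. All 7 lie above the line at 1 in cones, as a gene with equal levels in rods and cones would. In bipolar cells *CDHR1* stands far to the right of the others, and at 0 UMIs in horizontal cells it has no point there.

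A comparison of bipolar cells over Müller glia was added after these values had been seen. *CDHR1* was higher by 2.30 ± 0.23 on the log2 scale (adjusted p = 7.35e-06 by edgeR's quasi-likelihood test), the 1 gene of the 8 called higher, where 14.9% of all genes were called higher. *PROM1* was the 1 called lower, at -1.28 ± 0.26 (adjusted p = 0.00215 by edgeR), where 22.7% of all genes were called lower. Bipolar cells held only 7 and 24 UMIs of *PROM1*, and its ratio to the 4 rod genes there was 0.428 (0.172 to 0.885) and 0.964 (0.616 to 1.44). In Müller glia that ratio was 1.08 (0.854 to 1.35) and 1.12 (0.973 to 1.29), with intervals that held 1. The part of rod RNA in the difference for *PROM1* was not tested. The median of the 8 genes was -0.10 beside -0.11 over all genes. Scaled to total UMIs alone, without the TMM normalization, *ROM1* and *TULP1* were also called higher and *PROM1* was not called, at -0.67 (adjusted p = 0.0541 by edgeR). That scaling called 3978 of all 11625 genes higher and 1626 lower, against 1732 and 2644 with TMM. Within bipolar cells, a division made after the values were seen put *CDHR1* at 0.701 (0.509 to 0.941) and 1.72 (1.39 to 2.11) in the 227 and 222 cells that led with *TRPM1* and *GRM6*, genes of ON bipolar cells. In the 24 and 8 cells that led with *GRIK1*, a gene of OFF bipolar cells, it was at 1.41 (0.567 to 2.91) and 1.69 (0.550 to 3.95), with intervals that overlapped those of the others.

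The share of cells with a UMI followed the levels and the depth. In rods, 98.6% and 98.9% of cells had a UMI of *ROM1*, 92.4% and 97.3% of *PRPH2*, 82.6% and 95.9% of *RP1* and 74.9% and 79.7% of *TULP1*. Müller glia, deeper cells with no outer segment, had a UMI of *ROM1* in 61.6% and 46.7% of cells. After thinning each cell of at least 1000 UMIs to 1000, and leaving out the rest, the share was 31.0% and 23.9%. Thinned rods were at 99.2% and 99.3%, from the 2739 of 4986 and 1494 of 2930 rods with at least 1000 UMIs. For *CDHR1*, 16.3% (12.7 to 20.6) and 30.2% (24.8 to 36.1) of bipolar cells had a UMI, against 7.05% and 8.86% of Müller glia. After thinning these shares were 7.20% and 14.5% of bipolar cells, 1.34% and 2.04% of Müller glia, 8.72% and 13.2% of rods, and 8.47% and 18.8% of cones. At equal depth bipolar cells were thus nearer to rods and cones than to Müller glia. Besides rods, 318 and 248 bipolar cells, 362 of 472 and 137 of 220 cones, and 1159 and 538 Müller glia were deep enough to be thinned.

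Rods were compared by the share of their UMIs that came from 13 mitochondrial genes, a measure often used to filter cells. In N350, 2494 rods had under 5%, 1760 had 5 to under 10%, 644 had 10 to under 20% and 88 had at least 20%, and in N354 the classes held 1278, 992, 584 and 76 rods. Levels here are per 10000 UMIs of the other genes, because the mitochondrial UMIs otherwise lower every other level. *ROM1* was at 66.9, 66.9, 64.0 and 69.0 from the lowest to the highest class of N350 and at 63.7, 66.1, 66.5 and 60.5 in N354. The intervals of its lowest and highest class overlapped in both dogs. *TULP1* was at 16.6, 15.4, 12.7 and 14.4 in N350 and at 20.5, 17.0, 15.9 and 16.8 in N354. *RP1* was at 26.7, 23.0, 16.0 and 26.9 in N350 and at 69.2, 58.7, 49.5 and 60.1 in N354. Both genes were lowest at 10 to under 20% in both dogs. At 20% and above, *RP1* was higher again with intervals apart in both dogs, while the values of *TULP1* in these 2 classes differed by less than counting error. *PRPH2* went opposite ways at 10 to under 20%, with its lowest level in N350, 34.4, and its highest in N354, 61.9. Cone and Müller glia markers in rods of N350 also peaked at 10 to under 20%. They were at 6.02 and 6.57 UMIs per 10000 there, against 1.83 and 2.11 in the lowest class. In N354 these markers were at 0.929 and 1.68 at 10 to under 20%, against 0.798 and 1.80 in the lowest class. Their part in the result was not tested. For *PRPH2* the highest class over the lowest came to 1.04 (0.927 to 1.17) and 1.19 (1.06 to 1.32). For *PROM1* the ratio of the highest class to the lowest was 1.46 (0.842 to 2.37) in N350, and N354 had 1.48 (1.10 to 1.95).

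**Figure D4:**
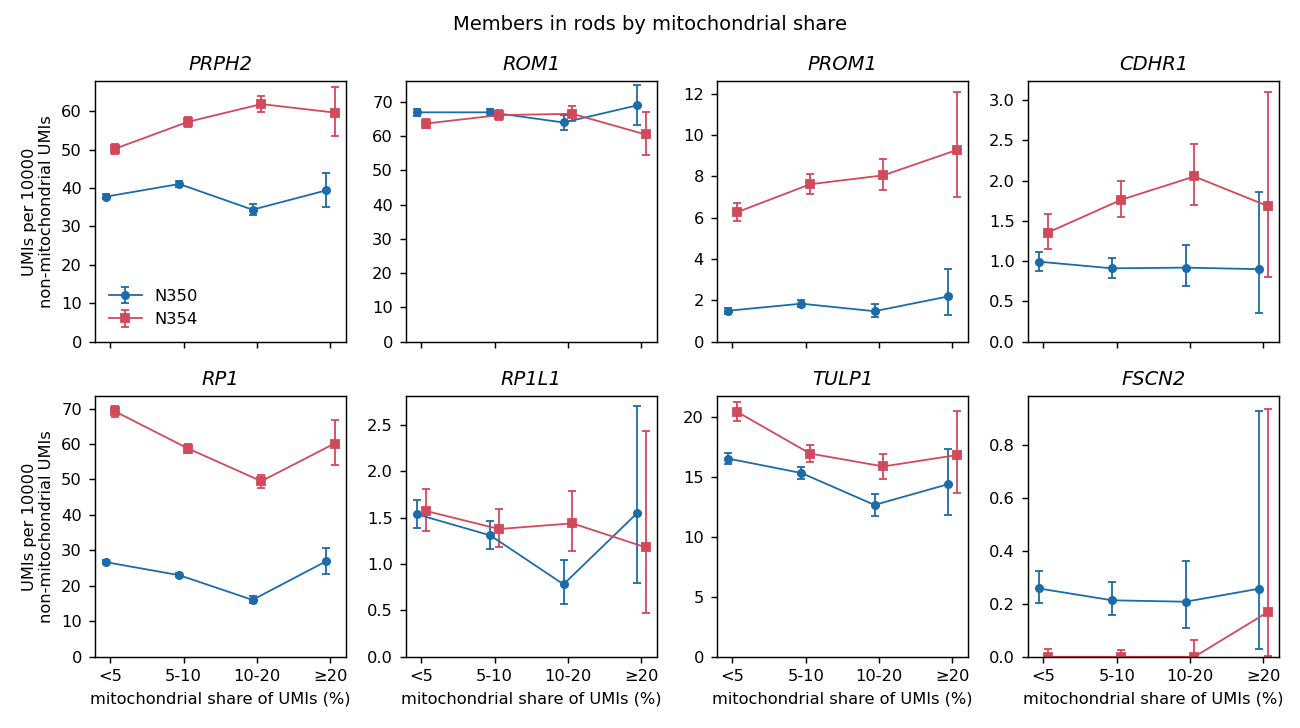
Level of each gene in rods, in UMIs per 10000 non-mitochondrial UMIs with exact Poisson 95% intervals, in 4 classes of mitochondrial share of N350 (circles) and N354 (squares). *RP1* and *TULP1* are lowest at 10 to under 20% in both dogs, though for *TULP1* the highest class differs from it by less than counting error. *ROM1* stays level, and intervals widen in the highest class, which held 88 and 76 rods.

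In rods with at least 20% over those with under 5%, edgeR's quasi-likelihood test called 0 of the 8 genes, where 0.0603% of 9947 genes were called higher and 0.0402% lower. By the same test 931 of all 9947 genes had an unadjusted p under 0.05, counting both directions. Of the 8 genes there were 3, *TULP1* at -0.52 ± 0.16 (adjusted p = 0.141 by edgeR), *RP1* at -0.39 ± 0.15 (adjusted p = 0.288) and *ROM1* at -0.28 ± 0.14 (adjusted p = 0.526). The median over all genes was -0.37 and that of the 8 genes was -0.25, so these values were near the bulk of all genes, and the median of the 8 was 0.04 when sums were scaled to totals alone. Neither DESeq2 nor any other alternative called any of the 8. On counts simulated for this comparison, edgeR's test recovered 6 of 100 genes changed by 1 on the log2 scale. It recovered 38 of 100 changed by 2, so the absence of calls does not show equal levels.

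Other genes of the outer segment and its cilium, 42 taken by name, were followed as a group, of which 37 were listed by name in both dogs and tested. By the same edgeR test, in rods over Müller glia, 32 of the 37 were higher and 0 lower, where 23.9% and 32.0% of all genes were, with a median log2 fold change of 1.93 beside -0.10 over all genes. *RPGRIP1*, a scaffold of the connecting cilium, was at 3.73 ± 0.33 and *GUCY2D*, a guanylate cyclase of the outer segment, at 3.69 ± 0.37. The smallest differences that passed were 0.51 ± 0.17 for *KIF3A*, a kinesin subunit, and 0.89 ± 0.24 for *CILK1*, a ciliary kinase. In cones over rods, 14 of the 37 were lower and 0 higher, where 8.98% and 11.0% of all genes were, with a median of -0.58 beside -0.04. *CNGB1*, a subunit of the rod cation channel, was lowest at -2.74 ± 0.27. The smallest that passed were *IFT88* at -0.67 ± 0.21 and *DYNC2H1* at -0.70 ± 0.21, both of intraflagellar transport. Against bipolar cells, 29 were higher and 1 lower in rods, and 23 were higher and 0 lower in cones. The shares over all genes were 14.5% and 15.3% for rods, and 11.2% and 9.45% for cones. In cones over Müller glia 24 were higher and 1 lower, where 17.4% and 24.5% of all genes were. In bipolar cells over Müller glia 10 were higher and 2 lower, where 14.9% and 22.7% were, and in rods of high over low mitochondrial share 0 of 36 passed, where 0.0603% and 0.0402% of all genes did.

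The genes most like the mean of the 8 were found over 13 sums of a class in a dog, by Pearson correlation of log2(UMIs per 10000 + 0.1), leaving out the gate markers of rods and cones. Among the 5 highest were *ABCA4* (r = 0.993), *DMD* (0.988), *PDC* (0.983) and *RDH8* (0.983). *ABCA4*, a lipid transporter of the disc rim, was at 4.87 and 10.9 in rods, 2.75 and 4.87 in cones, and 0.237 and 0.703 in Müller glia. *PDC*, phosducin, was at 117 and 138 in rods and 76.4 and 78.6 in cones. Of the 8 genes, *PRPH2* was nearest to their mean (0.995), and *CDHR1* (0.889) and *FSCN2* (0.593) were farthest. Each of the 8 is itself part of that mean, so its r is not comparable with that of the other genes. *FSCN2* had only 172 UMIs. The sums come from 2 libraries and all hold UMIs of rod genes, so these values describe the 13 sums and no more.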

How the data were processed

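Deposited values were raw UMI counts per gene and cell from droplets called as cells, which the authors made with Cell Ranger (version 6.0.2 per the file headers) and did not normalize. The study names canFam6, but the dogs list different genes, with 15236 names in both. Names repeated in N354, 17 of them, were summed. No coordinates or sequences were used here. The genes and lists were chosen with earlier results of these data known.

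Rods needed at least 10 UMIs from at least 3 of their markers and fewer than 3 of any other list. Cones and Müller glia needed 5 UMIs, and other classes 3, from at least 2 markers, and 3 times any other list but that of rods. All mitochondrial shares were kept, whereas the study left out cells above 5% and putative doublets. Median shares in N350 and N354 were 4.99% and 6.08% in rods, 8.09% and 12.0% in cones, 6.78% and 10.3% in Müller glia, and 13.1% and 17.6% in bipolar cells. Gates passed 83.1% and 92.4% of cells. The gate rules were the only doublet treatment, because Scrublet (scanpy 1.11.5) marked 0% and 0.0455% of cells by its own threshold. The rule of 3 times does not count the rod list, so it did not take doublets with rods out of the other classes. An alternative removed the 4% with the highest scores. The ratios to rod genes use 4 of the planned genes, those listed by name in both dogs.

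Classes with at least 20 cells in both dogs were summed and fitted together for genes with at least 10 UMIs in edgeR 4.0.16 (R 4.3.3), with TMM, class and dog as terms and Benjamini-Hochberg adjustment over all genes, threshold 0.05. The dog is a term because its 4 class sums share an animal, and their departures from the means of the classes had pairwise correlations of 0.725 to 0.822. The SE given with a log2 fold change was derived from edgeR's test, as the size of that change divided by the square root of its F statistic. DESeq2 1.42.0 was an alternative. The test was tried on simulated counts. Drawn along the dispersion trend for cones over rods, false calls stayed under the threshold, at 1.02% of calls. Drawn gene by gene they exceeded it, at 17.7%, as they did for the mitochondrial comparison, at 8.33%. Calls with an adjusted p near 0.05 are therefore less secure than that value says. For cones over rods, 27 of 100 genes changed by 1 on the log2 scale were recovered with either draw. The choice of the trend came second, after the gene-by-gene result had been seen, and both are kept. Nothing says that the dogs are more than 2 animals with 1 library each. Intervals, ratios and thinning were computed in scipy 1.17.1 with numpy 2.4.6 and pandas 2.3.3 (Python 3.11.15). Named genes were the 8, gate markers, the 2 largest and 2 smallest passing differences of the 42 other genes, and the 5 most alike, of which some are not reported here.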

Additional observations from a re-analysis of the deposited data

How the results depend on the processing

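The dog term decided most calls, and the cause was not tested. With no replicate block, that is without pairing the sums of a dog, the genes of the set called higher numbered 4 in rods over Müller glia, 4 in rods over bipolar cells, 2 in cones over Müller glia and 2 in cones over bipolar cells, those lower in cones over rods 0, and those in bipolar cells over Müller glia 0 higher and 0 lower. Over all genes the calls fell from 6504 to 1216, 3467 to 453, 4860 to 528, 2402 to 174, 2321 to 67 and 4376 to 595. Scaling to total UMIs alone, added after seeing the data, gave 3 higher and 0 lower in bipolar cells over Müller glia. Of all 11625 genes, 3978 were called higher there and 1626 lower. The median of the 8 genes turned to 0.55, while leaving out 1 dog gave -0.43 to 0.33. Scaling to totals raised the median of all genes by 0.59, 0.49 and 0.63 for rods, cones and bipolar cells over Müller glia. It lowered that median by -0.14 for cones over bipolar cells, and DESeq2 size factors moved rods over bipolar cells by -0.11. The share of calls that were higher then went from 42.7% to 63.6%, 41.5% to 64.4% and 39.6% to 71%. For rods by mitochondrial share the median of all genes rose by 0.22 with DESeq2 size factors and 0.28 with totals, with 92.9% and 94.1% of calls higher in place of 60%, and the 10 calls ranged from 0 to 593. *FSCN2* in rods over Müller glia ranged from -0.32 without replicate 1 to 2.97 without replicate 2. The level of all 8 genes in bipolar cells, 18.2, was 16.4 with higher gate minimums, 13.1 without high doublet scores and 21.5 without mitochondrial genes. Shares of cells with a UMI of any of the 8 fell on thinning from 73.0% to 41.1% in Müller glia and from 82.1% to 60.3% in bipolar cells. A limit of 10% mitochondrial UMIs left 18 bipolar cells in N354, and one of 5% left 1 cone and 1 bipolar cell there, so these comparisons have no value under it.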
